A study of Mus musculus with 9 samples.

Results

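Amacrine cells are the inhibitory and modulatory interneurons of the inner retina, and they are told apart by the transmitter they release. GABA is made by the glutamate decarboxylases Gad1 and Gad2 and, like glycine, is loaded into synaptic vesicles by the transporter Slc32a1 (VGAT), while cells that release glycine take it up through Slc6a9 (GlyT1). Starburst amacrine cells use acetylcholine, which is made by Chat, packed into vesicles by Slc18a3 (VAChT) and rebuilt from choline taken up by Slc5a7. Sparse dopaminergic amacrine cells carry Th, the rate-limiting enzyme of dopamine synthesis, and a small class that also releases glutamate carries the vesicular transporter Slc17a8 (VGLUT3). These 9 genes of transmitter synthesis and transport were followed in whole retina, out of 21769 genes counted. They were taken by gene symbol, and all 9 were found and passed the filter on low counts, as did 14300 genes in all. Amacrine cells are not their only site: horizontal cells of the mouse retina also carry Gad1 and Slc32a1.

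The 9 libraries of polyadenylated RNA, each made from 2 retinae, comprised 3 of wild type mice at postnatal day 48, 3 of rd10 mice at day 61 and 3 of mice labelled as GFP-expressing. Mice homozygous for rd10 carry a mutation of Pde6b and lose their rods after birth, and the labels call their retina degenerated and that of the other groups normal. Day 42 is given for a line written as Gg13, which was read as the GFP group because no other group lacks an age. The labels used here give no promoter for GFP. Age differed between all groups, so genotype and age cannot be told apart.

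Library totals ran from 9597635 to 12149448 counts, and levels are given as CPM, the counts of a gene per 1000000 counts of its library. Pde6b had 2683 to 3688 CPM in the 6 normal libraries and 6.01 to 30.1 CPM in rd10. Of 34 rod genes listed, 32 were tested and all 32 fell in rd10. Their summed level was 110000 to 147900 CPM in wild type, 118800 to 134200 CPM in GFP and 2636 to 3646 CPM in rd10. Lens transcripts were abundant in 4 libraries, wild type 2 and 3, rd10 2 and GFP 1, whose lens sums were 2027 to 4994 CPM against 4.96 to 51.5 CPM in the others. CPM values were adjusted between libraries with edgeR's TMM factors and are shares of the RNA of the whole retina, not amounts per cell or per eye. In such bulk samples a change in the number of cells of a type and a change in RNA per cell cannot be told apart.

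The regulatory sequence just upstream of 4 of the genes is shown first. These are the 3 cholinergic genes, whose TMM-scaled levels in rd10 lay above wild type, and Th, whose scaled levels lay below. Bases run 5′ to 3′ towards the start of transcription and come from RefSeq on GRCm38.p6, a later build than the mm9 of the counts. Bases that GENCODE places in an exon of the gene were left off. Capitals mark every match, on either strand, to TGACGTCA (the cAMP response element), CANNTG (the E-box), GCCNNNGGC (the AP-2 palindrome), TAATTA (a homeodomain site) or TATAAA (the TATA box).
Chat, chr14:32465958-32466159, minus strand: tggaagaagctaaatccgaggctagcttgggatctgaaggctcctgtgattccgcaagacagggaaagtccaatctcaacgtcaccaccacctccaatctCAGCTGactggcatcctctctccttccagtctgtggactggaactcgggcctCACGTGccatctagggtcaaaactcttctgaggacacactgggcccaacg
Slc18a3, chr14:32464851-32465100, minus strand: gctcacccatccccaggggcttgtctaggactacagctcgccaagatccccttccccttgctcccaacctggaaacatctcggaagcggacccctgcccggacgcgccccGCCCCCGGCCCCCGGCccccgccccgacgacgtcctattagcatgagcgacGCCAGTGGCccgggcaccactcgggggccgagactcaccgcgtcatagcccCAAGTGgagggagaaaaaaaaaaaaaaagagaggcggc
Slc5a7, chr17:54299035-54299284, minus strand: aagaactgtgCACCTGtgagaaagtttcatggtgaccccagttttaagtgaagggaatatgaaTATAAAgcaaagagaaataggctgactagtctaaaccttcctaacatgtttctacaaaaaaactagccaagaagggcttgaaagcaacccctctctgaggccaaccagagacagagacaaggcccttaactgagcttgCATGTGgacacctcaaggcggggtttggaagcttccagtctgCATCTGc
Th, chr7:142900015-142900245, minus strand: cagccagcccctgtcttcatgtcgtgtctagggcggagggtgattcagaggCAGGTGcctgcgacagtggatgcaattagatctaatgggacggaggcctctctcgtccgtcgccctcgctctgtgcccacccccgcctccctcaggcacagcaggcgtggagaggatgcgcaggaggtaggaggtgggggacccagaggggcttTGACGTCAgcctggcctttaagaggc

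RefSeq lists 12 windows of 250 bases for the 9 genes, 3 of them for Slc6a9 and 2 for Slc17a8. An E-box was matched in 10 of the 12, where 66.2% of all 32851 windows of this length in the table hold a match. The cAMP response element was matched in 1 of the 12, that of Th, and in 1.55% of all windows. It lies 38 bases before the RefSeq start, counted with the exon bases that were left off above. AP-2 palindromes were matched in 2, Gad2 and Slc18a3, against 13.7% of all windows, and the matches in Slc18a3 overlap each other in part. TATA boxes were matched in 2, Gad1 and Slc5a7, against 12.4% of all windows, and the homeodomain site in 1, Slc17a8, against 4.84%. GC content was 66.0% upstream of Slc18a3 and 64.4% upstream of Th, against 45.6% upstream of Slc5a7 and a median of 52.4% over all windows. A match describes letters and not a bound site.

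Levels were compared between genes as CPM per kilobase of the longest coding transcript. In wild type, Gad1 led with 111 ± 9.60 CPM per kilobase (SD, n = 3 libraries here and below), followed by Slc6a9 with 93.6 ± 4.16. Slc32a1 had 37.7 ± 0.53 CPM per kilobase and Gad2 11.5 ± 1.87. Among these first 4, no gene overlapped its neighbour in the order in any of the 3 groups. Below them, Slc18a3 had 5.89 ± 0.57 CPM per kilobase, Chat 4.55 ± 0.72, Slc17a8 3.71 ± 1.16, Th 3.29 ± 0.40 and Slc5a7 2.49 ± 0.33. Among these 5 in wild type, every neighbour in the order overlapped the next except Th and Slc5a7. In rd10, Th took the lowest place with 2.17 ± 0.49 CPM per kilobase, clear of Slc5a7, then at 5.21 ± 0.37.

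**Figure D1:**
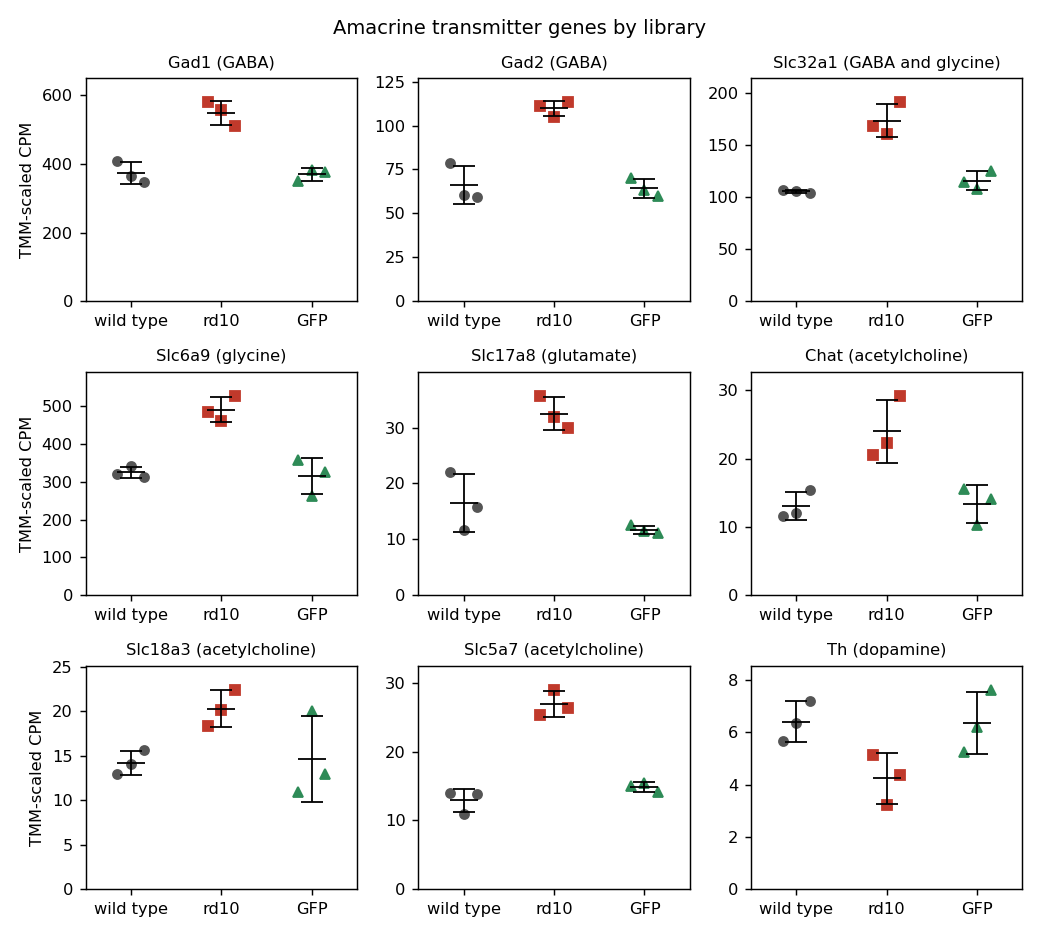
TMM-scaled CPM of each gene (vertical axis, from 0) in wild type, rd10 and GFP libraries, with 3 points per group and bars for the mean and SD. In 7 genes every rd10 library lies above all 6 normal libraries, Slc18a3 of rd10 overlaps the GFP group, and Th of rd10 lies below both normal groups.

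In rd10 against wild type, 7 of the 9 genes rose and none fell (0), while Slc18a3 and Th did not pass. Genes that passed stood for 14.5% of all tested genes in the upward direction and 13.9% in the downward direction. The 9 genes and the lists below were chosen with earlier results of these data known, so counts of calls among them are descriptive. A gene passed at an adjusted p under 0.05 in edgeR's quasi-likelihood test, adjusted by the Benjamini-Hochberg method over the 14300 genes. The median log2 difference of the 9 genes was 0.71, and that of all tested genes was -0.03. Every rd10 library lay above every wild type library for 8 genes, where 26.1% of tested genes showed this, and below for 1, Th, where 24.4% did. Only Slc5a7 passed with a rise of at least 2-fold, as did 6.29% of tested genes. Its log2 difference ran from 0.87, with the transcript length trend removed, to 1.34, with scaling by library totals. A rise of 2-fold was thus not kept under every setting. Leaving out the 4 libraries with lens transcripts left 1 wild type, 2 rd10 and 2 GFP libraries. The log2 differences of the 7 genes were then 0.41 to 1.09. With 1 wild type library, whether the calls hold without the lens libraries cannot be judged.

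The genes of GABA synthesis and vesicle loading rose by similar amounts. Gad1, the more abundant decarboxylase (mm9 chr2:70400221-70440069), had 409, 365 and 346 CPM in wild type, 579, 558 and 511 CPM in rd10 and 349, 382 and 378 CPM in GFP. No rd10 library reached down to the normal ones. The log2 difference from wild type was 0.56 (SE 0.15, adjusted p = 0.0169), or 1.47-fold, but the call was lost without wild type 3 (0.0644) or without rd10 1 (0.0574). Scaled by library totals instead, which gives shares of the counts, the difference was 0.85. Gad2, the decarboxylase of nerve terminals (chr2:22477847-22549397), had 78.5, 60.3 and 59.4 CPM in wild type, 111, 105 and 113 CPM in rd10 and 69.9, 63.0 and 59.7 CPM in GFP. The rd10 libraries of Gad2 were tightly grouped, above all normal ones, with a log2 difference of 0.73 (SE 0.15, adjusted p = 0.00551). With the transcript length trend removed, this difference was 0.52 and still passed (adjusted p = 0.01). Slc32a1 (chr2:158436494-158441483) had 107, 106 and 104 CPM in wild type, 168, 160 and 191 CPM in rd10 and 115, 107 and 125 CPM in GFP. It rose 1.64-fold in rd10 (log2 0.71, SE 0.14, adjusted p = 0.00385), and its GFP libraries lay just above the wild type ones.

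Ratios taken within a library do not depend on scaling, and they were taken here among the GABA and glycine genes. The ratio of Gad1 to Gad2 counts was 5.69 ± 0.43 in wild type, 5.01 ± 0.43 in rd10 and 5.79 ± 0.70 in GFP. Slc32a1 counts were 1.62 ± 0.22 times those of Gad2 in wild type, 1.58 ± 0.09 in rd10 and 1.81 ± 0.25 in GFP. Slc6a9 counts were 5.01 ± 0.81 times those of Gad2 in wild type, 4.47 ± 0.16 in rd10 and 4.92 ± 0.67 in GFP. In each of these ratios the range of rd10 overlapped that of the 6 normal libraries.

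Slc6a9, the glycine uptake transporter (chr4:117507863-117541910, overlapped at the locus by Ccdc24 on the other strand), had 322, 342 and 313 CPM in wild type. It had 485, 461 and 527 CPM in rd10 and 357, 263 and 327 CPM in GFP. All rd10 libraries lay above the normal ones, with a log2 difference from wild type of 0.59 (SE 0.16, adjusted p = 0.0193). That call was lost without wild type 3 (0.0646), rd10 1 (0.0513) or rd10 3 (0.0606), with log2 differences of 0.56 to 0.62. The strand setting of the counts is not given in the sources used here, so reads of Ccdc24 cannot be told apart from those of Slc6a9 where they overlap.

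Slc17a8, which marks the amacrine class that co-releases glutamate (chr10:89036765-89083994), had 22, 11.7 and 15.8 CPM in wild type, 35.6, 32.0 and 30.0 CPM in rd10 and 12.5, 11.5 and 11.1 CPM in GFP. The wild type libraries were more scattered than the GFP libraries, and rd10 lay above both. Its log2 difference was 0.98 (SE 0.23, adjusted p = 0.01) against wild type and 1.48 (SE 0.23, adjusted p = 0.00119) against GFP. The GFP group was lower than wild type by a log2 difference of -0.50 (SE 0.23), which did not pass (adjusted p = 1), and the libraries of the groups overlapped. Set against Slc6a9 counts in the same library, Slc17a8 stood at 0.0511 ± 0.0170 in wild type, 0.0666 ± 0.0086 in rd10 and 0.0375 ± 0.0053 in GFP. Here rd10 overlapped wild type but not GFP.

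Among the cholinergic genes, Slc5a7 and Chat rose and Slc18a3 did not pass. Slc5a7, the choline uptake transporter (chr17:54412915-54438359), had 13.9, 11 and 13.8 CPM in wild type, 25.4, 29.1 and 26.5 CPM in rd10 and 15.1, 15.5 and 14.1 CPM in GFP. It had the smallest adjusted p of the 9 genes in this comparison, with a log2 difference of 1.06 (SE 0.17, adjusted p = 0.00173), and 8.52% of tested genes had a higher one. Chat (chr14:33221389-33279095) had 11.6, 12 and 15.3 CPM in wild type, 20.5, 22.2 and 29.1 CPM in rd10 and 15.6, 10.3 and 14.1 CPM in GFP. Its log2 difference was 0.88 (SE 0.23, adjusted p = 0.0156), and the call was lost without wild type 2 (0.0560) or rd10 3 (0.0644).

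Slc18a3 (chr14:33275623-33278036) lies inside Chat on the same strand, so the files cannot show how reads of the shared locus were split between them. It had 12.9, 14.0 and 15.6 CPM in wild type, 18.3, 20.2 and 22.4 CPM in rd10 and 10.9, 20.1 and 13.0 CPM in GFP. The rd10 libraries lay above wild type but not above GFP 2. The log2 difference from wild type was 0.52 with a 95% interval from 0.00 to 1.04 (adjusted p = 0.122). It passed in 4 of 21 alternatives, among them the fit without GFP 2 (log2 0.54, adjusted p = 0.0343) and scaling by library totals (0.80, adjusted p = 0.0243). The ratio of Slc18a3 to Chat counts was 1.10 ± 0.08 in wild type, 0.857 ± 0.0763 in rd10 and 1.19 ± 0.67 in GFP, and rd10 overlapped GFP. The ratio of Slc5a7 to Chat counts was 1.01 ± 0.17 in wild type and 1.15 ± 0.21 in rd10.

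Th, the dopamine enzyme (chr7:150078681-150085871), was the only gene of the 9 with a lower level in rd10. It had 5.66, 6.35 and 7.22 CPM in wild type, 5.14, 3.22 and 4.35 CPM in rd10 and 5.26, 6.19 and 7.63 CPM in GFP, from 40 to 80 counts per library. After TMM scaling, all rd10 libraries lay below all normal ones, by a small margin between rd10 1 and GFP 1. Of tested genes, 19.0% showed such a gap downward. Scaled by library totals, the gap was lost. Th in rd10 1 then had 5.98 CPM, above 5.36 in wild type 1 and 4.89 in GFP 1. The values of rd10 2 and 3, 3.78 and 4.86 CPM, stayed below the normal libraries. The log2 difference was -0.60 against wild type (SE 0.28, 95% interval -1.21 to 0.02, adjusted p = 0.131) and -0.58 against GFP (SE 0.28, adjusted p = 0.134). Neither passed, nor did any of the 21 alternatives, in which the difference from wild type ran from -0.74 to -0.26. Within a library, Th counts were 0.0997 ± 0.0253 of Gad2 counts in wild type, 0.1004 ± 0.0264 in GFP and 0.0384 ± 0.0078 in rd10. The range of this ratio in rd10, 0.0307 to 0.0462, lay below the range of the 6 normal libraries, 0.0721 to 0.128, as did the ratio to Gad2 of 51.8% of tested genes. The transcript length trend was not removed from it, and the log2 offsets of that trend in rd10 minus wild type were -0.112 for Th and 0.228 for Gad2.

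**Figure D2:**
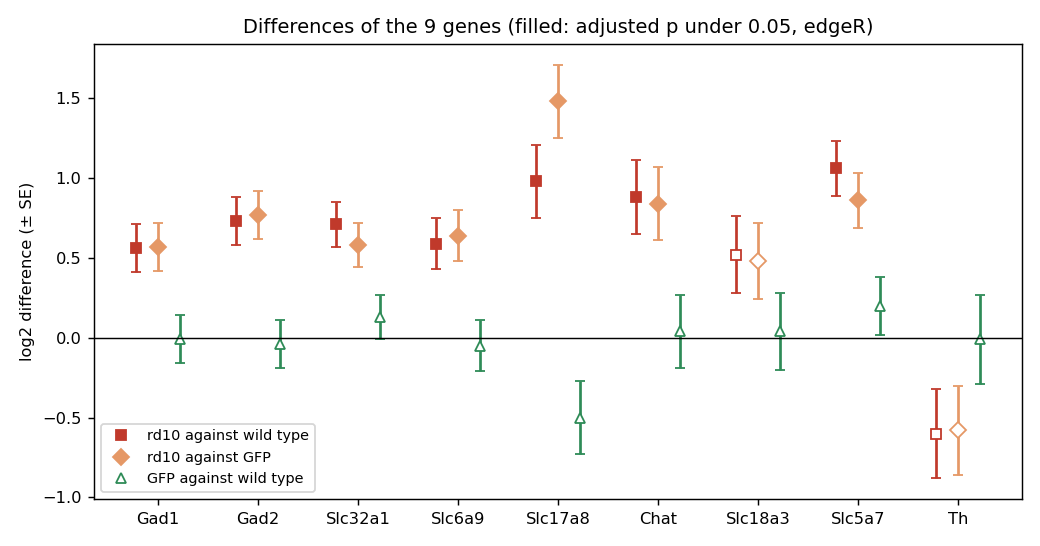
Log2 differences with their SE (vertical axis) for the 9 genes in rd10 against wild type, rd10 against GFP and GFP against wild type, filled where the adjusted p was under 0.05. The rd10 differences are above 0 for 8 genes and near -0.60 for Th, and no difference between the normal groups passed.

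In rd10 against GFP, the same 7 genes passed as higher and none as lower (0), against 15.2% and 15% of tested genes. This comparison shares its rd10 libraries with the one before. All rd10 libraries lay above all GFP libraries for 7 genes, where 25.1% of tested genes showed this, and below for 1, Th, where 23.1% did. Against both normal groups together, 7 genes lay above all 6 libraries, as did 20.7% of tested genes. Without the 4 libraries with lens transcripts, the log2 differences of the 7 genes from GFP were 0.52 to 1.54. Calls are not counted, since the fit held 1 wild type library, and whether those against GFP hold cannot be judged. With all 9 libraries, log2 differences were 0.57 for Gad1, 0.77 for Gad2, 0.58 for Slc32a1, 0.64 for Slc6a9, 0.84 for Chat and 0.86 for Slc5a7. The call of Gad1 was lost without rd10 1 (adjusted p = 0.0554) and that of Chat without rd10 3 (adjusted p = 0.0785). The largest was that of Slc17a8, the only one of at least 2-fold, as were 6.80% of tested genes among the calls. Slc18a3 had a log2 difference of 0.48 with a 95% interval from -0.04 to 1.00 (adjusted p = 0.145). Between the normal groups, none of the 9 genes passed (0), with log2 differences from -0.50 to 0.20, and no gene of 14300 did (0%). At an unadjusted p under 0.05 the count was 0 of the 9 genes and 214 (1.50%) of all genes, and DESeq2 called 0 and 2. The GFP libraries lay above all wild type ones for Slc32a1 and Slc5a7, as for 1.52% of tested genes, and below them for none of the 9 (0), against 2.46%.

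The levels were then set against 16 genes of amacrine cell identity, mostly transcription factors, in the same library. Of these 16 genes, 11 rose in rd10 against wild type, 5 did not pass and the median log2 difference was 0.80. Their summed level in rd10 was 2318 to 2447 CPM, against 1429 to 1564 in wild type and 1514 to 1699 in GFP. Prdm13, a regulator of amacrine fate, rose 2.09-fold, Ebf3 2.15-fold and Tfap2b, counted under the older symbol Tcfap2b, 1.87-fold. Pax6, a transcription factor of amacrine, ganglion and horizontal cells, had the highest mean level of the list over all 9 libraries and rose 1.62-fold (adjusted p = 0.0104). Calb2, a calcium-binding protein, had the highest level of the list in wild type, 390 ± 48.1 CPM, and did not pass (log2 0.34, adjusted p = 0.172). The 3 most abundant genes in each library held 59.8% to 65.8% of the summed counts. Since Pax6 is not restricted to amacrine cells, a share of this sum is not a level per amacrine cell.

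As a share of this sum, most of the transmitter genes did not separate rd10 from all 6 normal libraries. Gad1 was 24.7 ± 2.24% of the sum in wild type, 23.2 ± 2.05% in rd10 and 23.2 ± 1.53% in GFP. Gad2 was 4.36 ± 0.64%, 4.64 ± 0.11% and 4.03 ± 0.37% in the same order, and Slc6a9 21.6 ± 2.06%, 20.7 ± 0.82% and 19.9 ± 3.86%. Slc32a1, Chat and Slc18a3 likewise overlapped between rd10 and each normal group. Gad2 and Slc17a8 of rd10 overlapped wild type and lay above GFP. Gad2 was 4.53% to 4.75% in rd10 and 3.71% to 4.43% in GFP. Slc17a8 was 1.22% to 1.52% in rd10, 0.82% to 1.42% in wild type and 0.67% to 0.79% in GFP. How many tested genes had such a gap to GFP alone was not counted. Slc5a7 was higher without overlap, at 1.08% to 1.25% of the sum in rd10 and 0.767% to 0.954% in the normal libraries, as were 3.59% of tested genes. The transcript length trend was not removed from these shares, and its log2 offset for Slc5a7 in rd10 minus wild type was 0.197. Th was lower without overlap, at 0.139% to 0.219% in rd10 and 0.333% to 0.504% in the normal libraries, as were 46.9% of tested genes. The mean share of Th in rd10 was 0.422 of that in wild type and 0.446 of that in GFP.

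**Figure D3:**
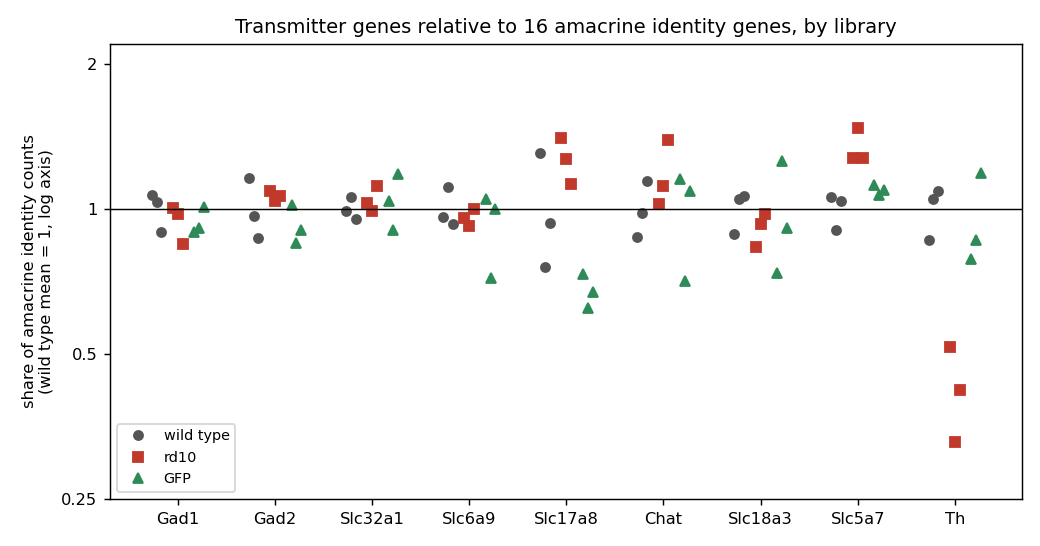
Counts of each gene as a share of the summed counts of 16 amacrine identity genes in the same library, relative to the wild type mean (vertical axis, log scale), with 3 libraries per group. The rd10 points overlap the normal ones for 7 genes, lie above them for Slc5a7 and below them for Th.

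Starburst cells were read through 6 further genes, of which 5 rose and 1 did not pass, with a median log2 difference of 1.18. Megf10, a receptor that spaces starburst cells, had a mean of 27.3 ± 8.43 CPM in wild type and 70.4 ± 10.9 in rd10, a rise of 2.58-fold (adjusted p = 0.00215). Sox2 rose 2.15-fold and Isl1 2.2-fold. These genes are not restricted to starburst cells: Sox2 is also a Müller glia gene and Isl1 is carried by ON bipolar and ganglion cells. The summed level of the 6 genes in rd10 was 460 to 485 CPM, against 189 to 239 in wild type and 209.5 to 264 in GFP.

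Other genes of the transmitter pathways moved in a mixed way. Of 49 listed genes 47 were tested, and in rd10 against wild type 11 rose, 4 fell and 32 did not pass, with a median log2 difference of 0.36. Without GFP 2 the number that rose was 17. Calls without the 4 libraries with lens transcripts are not given, since 1 wild type library was left. Among 10 genes of GABA uptake, breakdown and precursor supply, 6 rose, 1 fell and 3 did not pass. Abat, the GABA transaminase, rose 1.72-fold and Slc6a11 (GAT3) 1.78-fold. Slc38a3, a glutamine transporter, was the gene of the list that fell, from 998 ± 50.0 to 538 ± 47.3 CPM (adjusted p = 0.00191).

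Of 12 genes of glycine handling, 1 rose, 1 fell and 10 did not pass. Gldc, the decarboxylase of the glycine cleavage system, rose 2.32-fold (adjusted p = 0.00260), and Dld, a shared subunit of that system and of mitochondrial dehydrogenases, was 1.44-fold lower (adjusted p = 0.0447). Slc6a5 (GlyT2), the other glycine transporter, had 8.48, 5 and 3.11 CPM in wild type, 14.2, 9.74 and 19.1 CPM in rd10 and 11.3, 1.61 and 10.4 CPM in GFP. The rd10 libraries lay above the wild type ones and overlapped GFP, and the log2 difference of 1.38 from wild type did not pass (adjusted p = 0.0987).

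Of 7 genes of glutamate transport and metabolism, 3 rose, 2 fell and 2 did not pass. The vesicular transporters differed in direction. Slc17a7 (VGLUT1), which serves photoreceptors and bipolar cells, fell from 2083 ± 517 to 737 ± 90.2 CPM (log2 -1.50, adjusted p = 9.38e-04). Slc17a6 (VGLUT2), carried by ganglion cells, rose from 49.7 ± 9.39 to 91.3 ± 0.58 CPM (log2 0.88, adjusted p = 0.00302). Slc1a3, the glutamate uptake transporter of Müller glia, rose 2.08-fold and Glul, their glutamine synthetase, 1.86-fold.

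Of 7 tested genes of acetylcholine breakdown and choline supply, 1 rose and 6 did not pass in rd10 against wild type. Bche, the butyrylcholinesterase gene, rose from 3.36 ± 1.10 to 8.86 ± 2.18 CPM (adjusted p = 0.0162). Ache, the acetylcholinesterase, had 75.4 ± 9.99 CPM in wild type and 92.0 ± 1.69 in rd10 (log2 0.29, adjusted p = 0.242), and Slc44a2, a choline transporter-like protein, a log2 difference of 0.51 (adjusted p = 0.0623). Against GFP, 2 of the 7 genes rose, Bche and Ache (log2 0.55, adjusted p = 0.0387), and 1 fell, Slc44a1, another choline transporter-like protein (log2 -1.03, adjusted p = 0.0359).

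None of the 11 tested dopamine pathway genes passed in rd10 against wild type (0), with log2 differences from -0.41 to 0.62. At an unadjusted p under 0.05 the count was 1, Slc7a5, an amino acid carrier (log2 0.62, adjusted p = 0.0629), which passed against GFP (log2 0.74, adjusted p = 0.0314). Slc18a2, the vesicular monoamine transporter, had 16.5, 10.8 and 12.9 CPM in wild type and 14.5, 14.0 and 12.8 CPM in rd10, a log2 difference of 0.04 (adjusted p = 0.918). Ddc, which turns the product of Th into dopamine, had 5 to 24 counts in wild type libraries and 3 to 21 in rd10 (log2 -0.41, SE 0.70). Slc6a3, the dopamine uptake transporter, had 0 to 9 counts per library, did not pass the filter and is given no fold. Qdpr, a reductase that regenerates the cofactor of Th, was among those that did not pass (log2 0.18, adjusted p = 0.553).

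**Figure D4:**
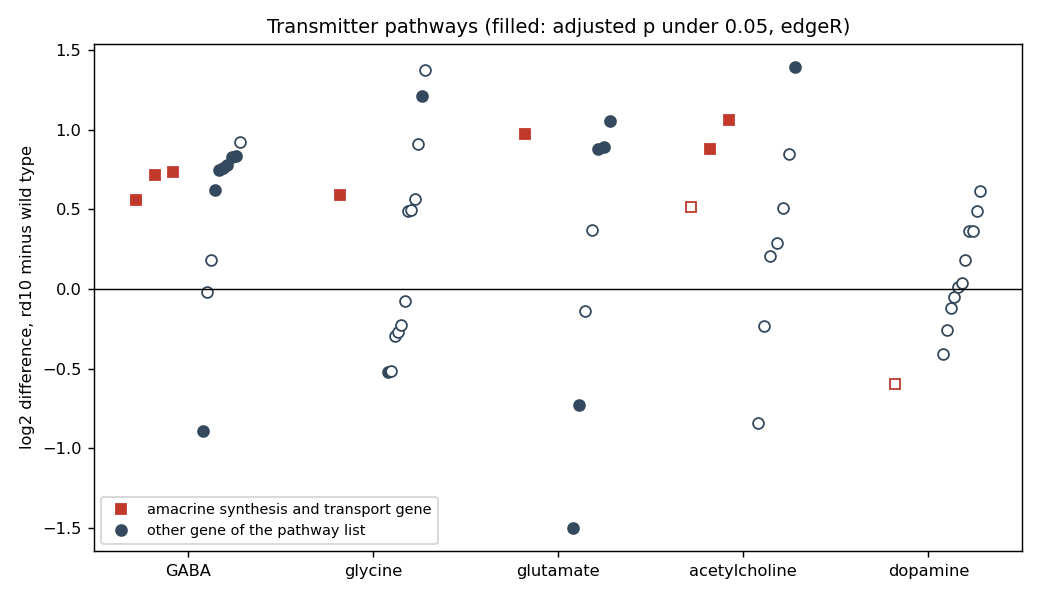
Log2 differences in rd10 minus wild type (vertical axis) for the 9 synthesis and transport genes (squares) and 47 other pathway genes (circles), by transmitter, filled where the adjusted p was under 0.05. GABA genes lie mostly above 0, and no dopamine gene is filled.

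Markers of other retinal cells moved in rd10 as well. Horizontal cell genes rose in 4 of 6 cases, with a summed level of 300.2 to 321 CPM in rd10, 179 to 208 in wild type and 180 to 227 in GFP. Müller glia genes rose in 9 of 10 cases, from a sum of 4328 to 5832 CPM in wild type and 5181 to 6186 in GFP to 9085 to 9725 in rd10. Bipolar genes rose in 8 of 11 cases and fell in 1, with sums of 1469 to 1880, 1550 to 1893 and 2662 to 3402 CPM in wild type, GFP and rd10. Ganglion cell genes rose in 3 of 11 cases, with sums of 1175 to 1397, 1218 to 1313 and 1649 to 1873 CPM in that order. Microglia genes rose in 9 of 10 cases, with sums of 59.1 to 72.3, 48.3 to 71.4 and 189 to 221 CPM. Cone genes rose in 1 of 13 cases and fell in 3, and their sum was lower in rd10, at 1923 to 2008 CPM, than in wild type, at 2497 to 2961, and GFP, at 2129 to 2814. Of 5 endothelial genes 1 rose, with a median log2 difference of 0.01 from wild type. Their sum was 522 to 738 CPM in rd10, 128 to 223.5 in wild type and 120.5 to 269.5 in GFP. No gene of these lists was at 0 in all libraries. The part of these cell types in the levels of the transmitter genes was not tested.

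Across the 9 libraries, the genes whose log2 CPM was most like the mean of Gad1, Gad2 and Slc32a1 were Mtus2 (Pearson r = 0.995), 4930506M07Rik (r = 0.993) and Six3os1 (r = 0.991), out of 11704 candidates with a mean of at least 5 CPM. For the mean of the cholinergic genes they were 9030409G11Rik (r = 0.991), Tnfrsf21 (r = 0.986) and BC018242 (r = 0.985). For Slc6a9 they were Jup (r = 0.996), Sulf1 (r = 0.994) and Cap2 (r = 0.993), and for Slc17a8 Elovl5 (r = 0.981), G2e3 (r = 0.974) and Kcnc2 (r = 0.972). For Th they were Rpusd4 (r = 0.943), Fam63a and Fam185a (both r = 0.937). These values describe 9 libraries that share the gap between rd10 and normal retina, and they are the highest of many candidates. Among the 9 genes, Chat and Slc5a7 had r = 0.85 over the libraries, but 0.04 once each group's mean was removed, and Gad1 and Gad2 had 0.94 and 0.39.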

How the data were processed

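The deposited files hold raw read counts per gene, 1 file per library, counted by the authors on mouse build mm9 per the submitters' processing notes. The aligner, counter, annotation, strand setting and treatment of reads with several matches are not given in the sources used here. The low-count filter was filterByExpr (edgeR 4.0.16, R 4.3.3; minimum count 10, minimum total 15), and kept genes were scaled by TMM and fitted in 1 quasi-likelihood model with a mean per group over 9 libraries. Benjamini-Hochberg adjustment ran over all 14300 genes kept, and DESeq2 1.42.0 was an alternative. The procedure was tested on simulated data. The criteria to pass covered unchanged genes and the largest simulated rise, not rises of the size seen in these genes. Replicates are called biological by the labels. Chi-square per degree of freedom between them was 13.5 to 77.7, and intervals cover counting and library spread only. Transcript lengths came from GENCODE M21, with a length for 98.8% of tested genes. Of 214 list entries 212 were matched, 5 by an older symbol. The 9 genes and the lists were chosen with earlier results of these data known. Named genes were the 9 genes, the 2 (pathway lists) or 3 (identity lists) smallest adjusted p and the highest level of each list, the 3 genes most alike per pattern, and a few fixed transporters; Abat, Slc6a11, Slc44a1 and Calb2 were added after their values were seen. Some genes that this rule names are not reported here.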

Additional observations from a re-analysis of the deposited data

How the results depend on the processing

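The differences of the 9 genes, the counts of these and of the pathway genes that passed, and the counts and median over all genes were recomputed under 21 alternatives, 2 of them chosen after seeing the data: leaving out the 4 libraries with lens transcripts, and leaving out wild type 3 with GFP 2. No direction of a difference between rd10 and a normal group reversed among the 9 genes. With single libraries left out, 5 to 8 of the 9 genes were higher against wild type and 6 to 8 against GFP, and 0 were lower. Over all genes the same settings gave 1269 to 2891 higher and 1186 to 2530 lower against wild type. Against GFP they gave 1297 to 2266 higher and 1305 to 2138 lower. Counts of calls without the lens libraries, for the 9 genes and the pathway genes, are not given. The fit over all 3 groups then held 1 wild type library, so whether calls against wild type or GFP hold there cannot be judged. Among the 47 pathway genes, single libraries left out gave 9 to 17 higher and 3 to 5 lower against wild type, and 9 to 15 higher and 3 to 4 lower against GFP. Scaling by library totals gave 19 higher against wild type and 3 lower against GFP, removing the transcript length trend gave 7 lower against wild type, and fitting only the 2 groups gave 3 lower against GFP. Leaving out wild type 3 with GFP 2 gave 17 higher against wild type. The cause of these shifts was not tested. Library totals moved the median log2 difference of all genes from -0.03 to 0.25 against wild type and from -0.02 to 0.31 against GFP.

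Replicate numbers did not pair the libraries: residual correlations of same-numbered libraries ran from -0.37 to 0.36. With the replicate block, 7 of the 9 genes were higher and 0 lower in both rd10 comparisons, and 11 pathway genes were higher and 3 lower against wild type, 13 and 4 against GFP. Over all genes, the block gave 1817 higher and 1789 lower against wild type, and 1996 and 1912 against GFP. The identity and marker lists, ratios, shares and correlations were not recomputed. Th rests on 40 to 80 counts per library, which limits its precision.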
